A study of Mus musculus with 48 samples.

Results

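Gene expression in the wild-type mouse aorta was compared across birth, from E17.5, day 17.5 of gestation, to P1, the first day after birth. The comparison used 16 of the 48 arrays of the series. They were chosen by their titles, which give the Eln or the Efemp2 model and the genotype WT, and 8 of them were from each stage. The name of a model is that of the gene deleted in its knockout (KO) animals, and the arrays used here are from the animals labelled WT in each model. All were C57BL/6 mice, with no transgene, deletion or treatment in the labels. Each model and stage was sampled at 2 locations, the ascending aorta (AA) and the descending aorta (DA). That gave 8 groups of 2 arrays, and RNA of like tissue from 8 animals was pooled for each array. P-values therefore measure the spread between pools, and differences between single animals are averaged within a pool. In the stage and location comparisons this spread also includes differences between the models in their stage and location changes. The Eln and Efemp2 KO arrays (16) and the Lox WT arrays (8) are set beside the results where stated. The Lox WT arrays were left out of the tests because their median gene differed by 1.63 between the stages.

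At birth the aorta changes from a vessel of the low-pressure fetal circulation, supplied with oxygen and nutrients by the placenta, to one that carries the whole output of the left heart at rising pressure. Around this time its smooth muscle cells are still dividing and lay down the elastic laminae. Elastin, encoded by Eln, is deposited on microfibrils of fibrillins and crosslinked by lysyl oxidases. The newborn also meets air, milk fat, cold, microbes and a surge of stress hormones, and brown fat around the thoracic aorta starts to produce heat.

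Values are log2 signals, and a difference of 1 is a 2-fold change. The replicate pools of a group correlated with r of 0.864 to 0.987 across 13893 genes. The median difference of P1 less E17.5 over all tested genes was -0.0073 in Eln and -0.29 in Efemp2. This shift was taken off every difference given below, off the mean signals of gene lists and before the stages were compared for overlap. Levels of single genes are printed as deposited. Background, read as the median of the 16010 probe sets with no gene symbol, was 3.53 to 3.85 on the E17.5 arrays. It was 4.35 to 4.37 on 4 P1 arrays and 3.83 to 4.09 on the remaining P1 arrays. The 4 arrays of raised background were both Eln DA P1 arrays and replicate 2 of Efemp2 AA P1 and of Efemp2 DA P1. Leaving them out does not level the stages, since the remaining Efemp2 P1 arrays had 4.07 and 4.09, against 3.53 to 3.72 at Efemp2 E17.5. Exact coincidence of the lowest values occurred in 13 of 28 array pairs of Eln E17.5, in 14 of 28 of Efemp2 E17.5 and in 43 of 120 of the P1 arrays of both models (KO arrays included), but in 1 of 320 pairs across these sets. The arrays of E17.5 and of P1 thus fall into different sets, and stage and normalization set cannot be told apart for any single gene. As to the labelled tissue, 17 contractile smooth muscle genes passed the filter on low signal, and their mean signal was 8.36 to 9.31 on the 16 arrays.

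A gene was tested if the mean of any of the 8 groups reached 4.99. Some dim genes thus entered only through the groups where they were high, and the filter favoured that direction. Examples are Adipoq, Ucp1, Adig, Srsy, Saa3 and Itgam, which entered so through P1, Cdh12 and Slc26a7 through E17.5, and Ina through DA E17.5. Of 13893 genes tested with limma, 3520 were higher at P1 (25.3%) and 3311 lower (23.8%) at a Benjamini-Hochberg adjusted p under 0.05. Of these 6831 genes, 5818 had the same direction in all 4 pairs of model and location. The 8 P1 arrays all lay above the 8 E17.5 arrays in 674 genes (4.85%) and all below in 726 (5.23%). The direction depended on how bright a gene was. The genes were split into 4 bins of equal size by mean signal. In the dimmest bin, with mean signals of 2.68 to 5.11, the median change was 0.44, with 1780 genes higher and 280 lower, and in the brightest it was -0.28, with 465 higher and 1376 lower. Without the 4 arrays of raised background these medians were 0.28 and -0.17. The 1394 olfactory and vomeronasal receptor genes, which are known mainly from sensory cells, differed by a median of 0.40 to 0.75 in the 4 pairs before the shift was taken off. Their median signal was 2.38 to 2.63 on the E17.5 arrays and 2.76 to 3.53 on the P1 arrays. The part of this dependence in single results was not tested beyond the alternatives given beside them. Without the 4 arrays 4499 genes passed, and 4149 of them had also passed with all 16. With array background as a covariate in the model 2147 genes were higher and 800 lower (72.9% rises). Genes given below with values of their own are covered next, and genes named without values are not. Lost with this covariate, where the text does not say so again, were Osgin1, Dbp, Klf9, Fabp3, Loxl4 and Col1a2 among the rises. Among the falls they were Peg3, Cdkn1c, Igfbp5, Igf2bp3, Lox, Loxl1, Emilin2, Lamb1, Serpinh1, Hmgcs1, Fasn, Insig1, Myh9, Kit, Hba-x, Tubb3, Dbh, Stmn2 and Fabp7. If the shift was left in, 36.5% of the calls were rises in place of 51.5%.

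**Figure D1:**
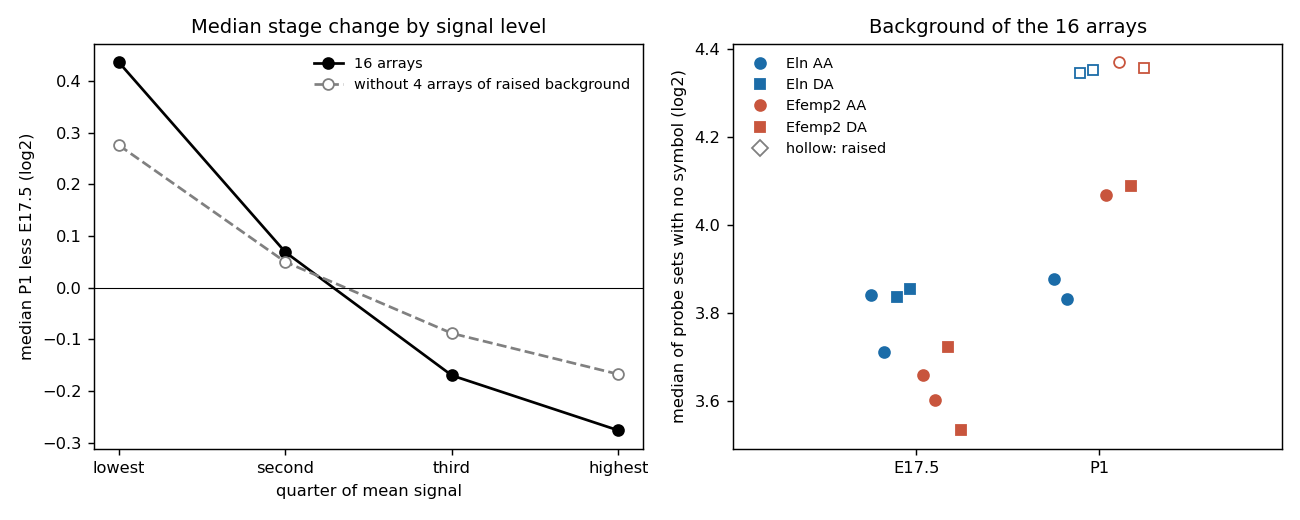
Left, the median P1 less E17.5 difference (log2) of the tested genes in each of the 4 bins of mean signal, with all 16 arrays and without the 4 arrays of raised background; it runs from 0.44 in the dimmest bin to -0.28 in the brightest. Right, the median log2 signal of probe sets with no gene symbol on each array, by stage, with colour for model and shape for location; the 4 hollow P1 arrays lie at 4.35 to 4.37.

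Several of the steepest rises at P1 were those of fat cell genes. Of the 10 tested genes in a list of fat cell markers, 9 rose and 0 fell, with a median of 1.66 against 0.0048 over all tested genes. With no filter the medians were 1.59 over the 11 measured fat cell genes and 0.26 over all 22180 genes. Adipoq, which encodes the fat cell hormone adiponectin, had signals of 3.68 to 4.55 (median 4.04) at E17.5 and 5.73 to 9.13 (median 7.28) at P1. Every P1 array exceeded every E17.5 array, and the difference was 3.45 ± 0.30 (SE, 8 arrays a stage, adjusted p = 9e-07, limma). Car3, a carbonic anhydrase abundant in fat and slow muscle, ran from 5.72 to 9.01 (median 7.42) at E17.5 and from 8.60 to 12.22 (median 11.22) at P1. Its ranges overlapped through 1 P1 array, Efemp2 AA replicate 2, and it rose by 3.64 ± 0.40 (adjusted p = 5.8e-06). The lipid droplet genes Cidec (2.28 ± 0.42) and Plin1 (1.72 ± 0.35), the resistin gene Retn (1.98 ± 0.23) and the hormone-sensitive lipase gene Lipe (1.59 ± 0.24) rose as well, each with no overlap between the stages. Adig, a small adipocyte protein gene that was among the 15 largest rises, went from 2.67 to 3.22 (median 2.98) up to 3.43 to 7.67 (median 5.46). The other members that rose were Fabp4, Cd36 and Plin4. The mean signal of the whole fat list was 5.48 to 6.09 at E17.5 and 6.68 to 8.99 at P1, with no overlap and a wider spread among the pools after birth. In a bulk sample more cells of a type and more RNA per cell cannot be told apart.

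Heat-producing brown fat genes were uneven among the pools. Of 6 tested brown fat markers 4 rose and 1 fell. Ucp1, the uncoupling protein by which brown fat makes heat, was 3.58 to 3.97 (median 3.72) at E17.5 and 4.74 to 9.38 (median 6.56) at P1, a difference of 3.29 ± 0.55 (adjusted p = 0.00017). All P1 pools lay above the E17.5 pools, but replicates split widely: Eln AA P1 had 4.74 and 9.38. Cox8b, a muscle and brown fat subunit of cytochrome oxidase, ran from 5.12 to 8.43 (median 6.25) and from 7.31 to 11.11 (median 9.96) and rose by 3.40 ± 0.41, and Cidea, a lipid droplet protein of brown fat, rose by 1.78 ± 0.32. Prdm16, a regulator of brown fat identity, fell by 0.76 on the log2 scale (SE 0.16, adjusted p = 0.0012) but did not pass with background as a covariate (-0.81), in Efemp2 arrays alone (-0.43) or in DA arrays alone (-0.67), and its coactivator gene Ppargc1a did not pass (-0.24 ± 0.23, adjusted p = 0.4). The fatty acid carrier gene Fabp3 passed narrowly (0.29 ± 0.11, adjusted p = 0.046) and was lost on leaving out any of 12 of the 16 arrays, with differences of 0.23 to 0.31.

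In a list of fatty acid oxidation genes and targets of the PPAR receptors, which sense fatty acids, 5 of 15 tested genes rose and 0 fell, a share near that of all genes, and the list median was 0.39. The count depended on the processing. With background as a covariate 11 of the list rose, against 15.5% of all tested genes, and in Efemp2 arrays alone 2 rose. Angptl4, an inhibitor of lipoprotein lipase that fasting induces, went from 4.83 to 6.22 (median 5.54) up to 5.94 to 7.89 (median 6.76), a rise of 1.46 ± 0.23 (adjusted p = 0.00012). Pdk4, a kinase that turns cells from glucose towards fat as fuel, rose by 1.35 ± 0.19, and the lipoprotein lipase gene Lpl by 0.99 ± 0.32. In Lpl the pairs disagreed, since the difference was -0.68 in Efemp2 AA and 1.48 to 1.60 in the other 3 pairs. The respiratory chain list had 7 of 17 tested genes higher and 1 lower. These counts were 11 and 0 with background as a covariate and 3 and 1 in Efemp2 arrays alone. Of its members, the heart and muscle isoform gene Cox7a1 differed by 2.36 ± 0.45 and the widely used Cox4i1 by 0.93 ± 0.22. For Cox7a1 too the difference was 2.98 to 3.50 in 3 pairs and -0.26 in Efemp2 AA. The lipogenic genes Thrsp (1.84 ± 0.26) and Scd1 (1.37 ± 0.38) rose. The fat cell list moved with all of these, and its part in them was not tested.

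A second set of steep rises came from genes of dim signal at E17.5 that are known mainly from germ cells. Srsy, Cypt14, Spin2d, Srsx, Pramel34, Tdpoz2, Frmpd1os and Btbd35f1 were among the 15 largest rises and differed by 2.59 to 3.59. Srsy ran from 3.17 to 4.18 (median 3.76) at E17.5 and from 3.7 to 9.83 (median 7.79) at P1. It rose by 0.68 in Eln AA but by 5.65 and 5.59 in the DA of Eln and Efemp2. With array background as a covariate 6 of the 8 lost their call, with Srsy at 1.32, Tdpoz2 at 1.08, Srsx at 1.06, Btbd35f1 at 0.93, Spin2d at 0.43 and Pramel34 at -0.071, and the part of background in them was not tested. Cypt14 (3.17 ± 0.38) and Frmpd1os (2.70 ± 0.19) kept theirs under every alternative run. Several of these are members of large gene families with near-identical copies, whose probe sets may read more than 1 copy.

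**Figure D2:**
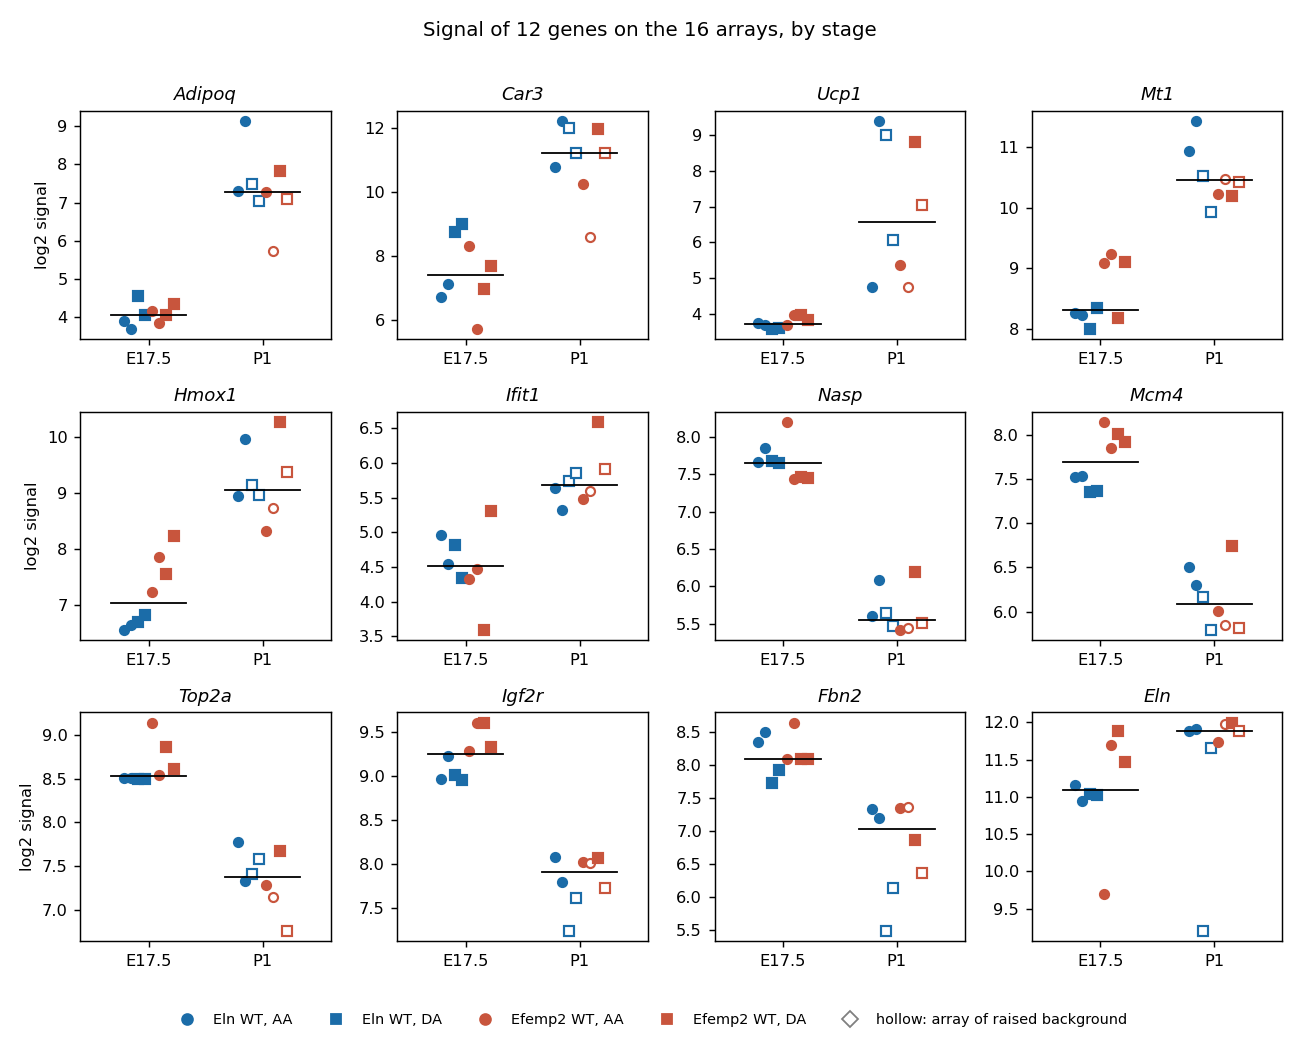
Deposited log2 signal of 12 genes on each of the 16 arrays at E17.5 and P1, with colour for model, shape for location and hollow symbols for the 4 arrays of raised background; the bar is the median of 8 arrays. Adipoq, Ucp1, Mt1, Hmox1 and Ifit1 lie higher at P1 with no overlap, Nasp, Mcm4, Top2a, Igf2r and Fbn2 lower with no overlap, and Eln overlaps, with 1 low array at each stage.

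Metallothioneins and targets of glucocorticoids were higher after birth. Metallothioneins bind zinc and copper and are induced by metals and by stress hormones. Mt1 had signals of 8.00 to 9.23 (median 8.30) at E17.5 and 9.93 to 11.43 (median 10.46) at P1, with no overlap, and rose by 2.11 ± 0.19 (adjusted p = 1.5e-06). Mt2 ran from 7.87 to 8.98 (median 8.44) and from 9.03 to 12.23 (median 10.53), a rise of 2.21 ± 0.28. In the glucocorticoid list, which holds both, 11 of 16 tested genes rose and 1 fell, with a median of 0.54. Its member Tsc22d3, which encodes the steroid-induced leucine zipper GILZ, went from 4.41 to 5.24 (median 4.89) up to 5.56 to 6.31 (median 5.91), by 1.16 ± 0.17. Cebpd, a transcription factor of the acute response, rose by 0.94 ± 0.16, and Hsd11b1, the enzyme that regenerates active corticosterone inside cells, by 1.17 ± 0.13. The stages did not overlap for any of these 3, and Cebpd did not pass with background as a covariate (0.74). In Efemp2 arrays alone 6 of the list passed, and in DA arrays alone 6.

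The oxidative stress list had 6 of 14 tested genes higher and 1 lower. Hmox1, whose enzyme breaks down haem, had signals of 6.56 to 8.22 (median 7.03) before and 8.32 to 10.26 (median 9.05) after birth, without overlap, and rose by 2.16 ± 0.25 (adjusted p = 8.6e-06). Osgin1, an NRF2 target, rose by 1.05 ± 0.15, to 5.34 to 6.22 from 4.66 to 5.19. Clock genes were mixed, with 4 of 13 higher (30.8%) and 2 lower (15.4%), against 25.3% and 23.8% of all tested genes. Nr1d2, a repressor in the clock loop, rose by 1.02 ± 0.16 with no overlap, and the clock output gene Dbp by 0.67 ± 0.16. Klf9, which glucocorticoids and thyroid hormone induce, rose by 0.59 ± 0.15. Time of day at collection is not in the labels. Of 20 immediate early genes, which respond within minutes to stimulation and also to tissue handling, 8 rose (40%) and 0 fell, with a median of 0.08. If the shift was left in, 5 rose and 4 fell, and in DA arrays alone 2 rose and 1 fell. With background as a covariate 7 rose and 0 fell. Junb went up by 1.11 ± 0.18 and Nr4a3 by 1.03 ± 0.12, and Nr4a3 had no overlap.

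Genes of innate immunity rose together. In the interferon list 7 of 9 tested genes were higher and 0 lower, with a median of 1.03, and the same counts held with background as a covariate. Interferon acts through a factor that reads a repeat of the letters GAAA. To show where such repeats lie, the 250 bases before the gene start are given for 2 genes of the list, from RefSeq, build GRCm38.p6, on the strand of the gene. Capitals mark matches of GAAA, any 2 bases and GAAA, on either strand, and matches may overlap.

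Isg15 (chr4:156200819-156201068, minus strand): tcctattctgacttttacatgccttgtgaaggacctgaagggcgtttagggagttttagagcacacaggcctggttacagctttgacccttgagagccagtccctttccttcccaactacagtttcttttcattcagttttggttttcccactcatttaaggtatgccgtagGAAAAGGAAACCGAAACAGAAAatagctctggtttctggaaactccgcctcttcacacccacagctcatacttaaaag
Ifit1 (chr19:34640639-34640888, plus strand): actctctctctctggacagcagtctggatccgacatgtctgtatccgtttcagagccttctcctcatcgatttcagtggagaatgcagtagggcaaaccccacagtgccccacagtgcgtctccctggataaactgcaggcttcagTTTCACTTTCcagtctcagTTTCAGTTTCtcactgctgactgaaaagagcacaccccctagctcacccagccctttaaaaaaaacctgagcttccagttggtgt

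Isg15 held 3 overlapping matches and Ifit1 2, read on the opposite strand. Of 32851 promoters searched, 978 held at least 1 match (2.98%) and 59 at least 2 (0.18%). Of the 7 list genes with a promoter there 5 held one: Ifit1, Ifit3, Isg15, Rsad2 and Irgm1. The letters describe these stretches and show no binding.

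Ifit1, which blocks translation of foreign RNA, had signals of 3.60 to 5.31 (median 4.51) at E17.5 and 5.32 to 6.59 (median 5.69) at P1. The stages met without overlap, and Ifit1 rose by 1.37 ± 0.22 (adjusted p = 0.00012). Isg15, a ubiquitin-like modifier, went from 4.07 to 5.94 (median 4.90) to 4.85 to 6.82 (median 5.93), by 1.22 ± 0.30, with overlap. Ifit3 (1.05 ± 0.20), the antiviral gene Rsad2 (1.04 ± 0.19) and the transcription factor gene Irf7 (0.91 ± 0.14) rose too. Ifit3 did not pass with background as a covariate (0.19). Of 9 antigen presentation genes 8 rose, with a median of 0.80. Tap1, the peptide transporter of class I presentation, ran from 5.55 to 5.86 (median 5.70) before birth and from 6.14 to 7.01 (median 6.45) after, a rise of 0.93 ± 0.13 with no overlap. The immunoproteasome subunit gene Psmb9 (0.88 ± 0.13), the class I gene H2-K1 (1.04 ± 0.18) and the class II gene H2-Eb1 (0.96 ± 0.15) moved alike. The H2 genes have close paralogs that probe sets may not separate. Of 9 complement genes 7 rose and 0 fell (median 0.96), among them C1qa, C1qb, C1qc (1.13 ± 0.16) and C4b (1.12 ± 0.20). In Efemp2 arrays alone 2 of the complement genes and 5 of the antigen presentation genes passed.

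Markers of blood and immune cells moved with these genes, and their part in them was not tested. Of 14 macrophage markers 8 rose and 0 fell, and the range of the list's mean signal was 6.10 to 7.18 at E17.5 and 6.64 to 7.42 at P1. Itgam, the integrin chain of myeloid cells, went from 4.04 to 4.79 (median 4.50) up to 5.09 to 6.35 (median 5.64), by 1.30 ± 0.15 with no overlap. The lysozyme gene Lyz2 (1.21 ± 0.30) and the resident macrophage genes Cd163 (0.98 ± 0.18) and Timd4 (1.00 ± 0.17) rose. In Efemp2 arrays alone 3 macrophage markers passed. Of 11 neutrophil markers 6 rose, S100a8 by 1.27 ± 0.32, and 2 passed without the 4 arrays of raised background. Platelet markers rose in 5 of 6, led by Pf4 (1.72 ± 0.23) and Gp9 (1.09 ± 0.24), and lymphocyte markers in 6 of 7, with Cd3e (1.06 ± 0.21) and Cd3g (1.41 ± 0.34). Without those 4 arrays 2 platelet and 3 lymphocyte markers passed. The acute-phase genes Saa3 and Hamp, the latter the iron hormone hepcidin, were among the 15 largest rises. Saa3 went from 3.0 to 4.37 (median 3.87) to 3.87 to 7.87 (median 6.53), and Hamp from 2.01 to 5.14 (median 3.63) to 5.05 to 8.72 (median 6.45). Among mast cell genes the proteases Mcpt4 (2.41 ± 0.44), Tpsb2 (1.21 ± 0.25) and Cma1 (0.99 ± 0.23) rose, the receptor gene Kit fell by 0.58 on the log2 scale (SE 0.13), and Cpa3 did not pass (0.30 ± 0.19, adjusted p = 0.2).

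**Figure D3:**
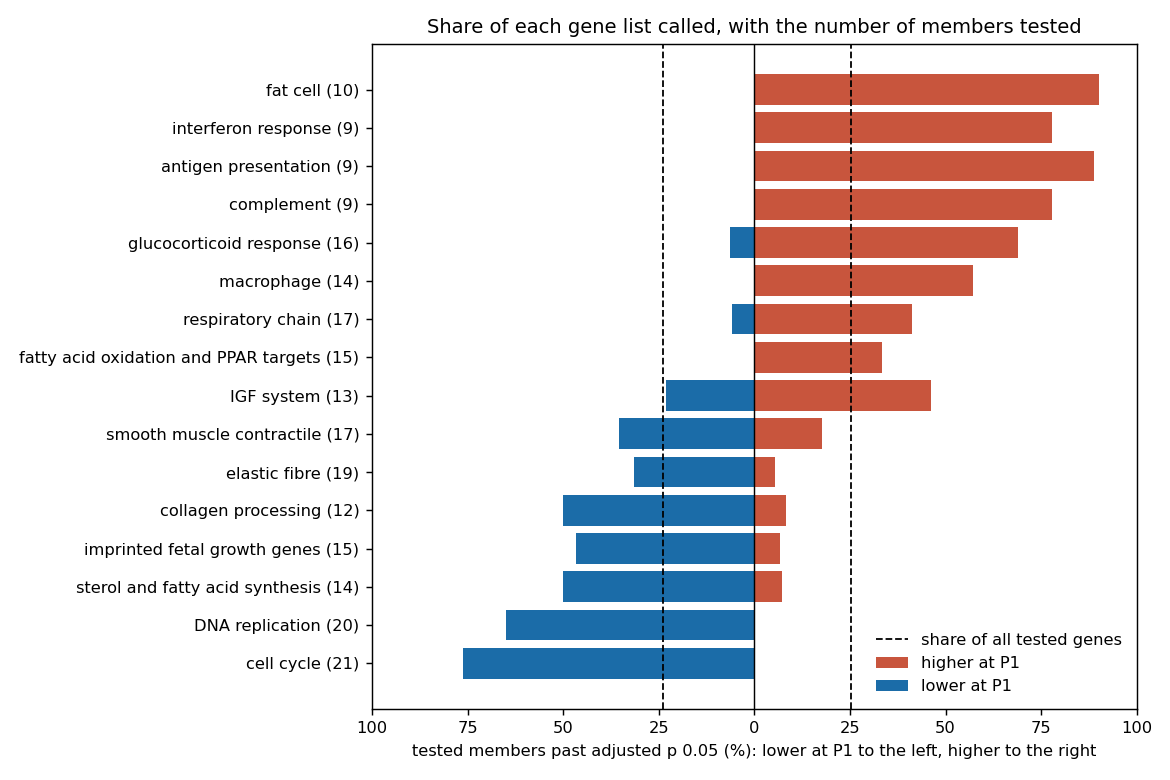
Percent of the tested members of 16 gene lists past an adjusted p of 0.05, lower at P1 to the left and higher to the right, with the number tested in brackets; dashed lines give the shares of all tested genes, 23.8% and 25.3%. The fat cell, interferon, antigen presentation, complement, glucocorticoid, macrophage, respiratory chain, fatty acid oxidation and IGF lists lie beyond the line on the right. The contractile, elastic fibre, collagen processing, imprinted, sterol, DNA replication and cell cycle lists lie beyond the line on the left.

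Proliferation genes were lower after birth. Of 21 tested cell cycle genes 16 fell and 0 rose, with a median of -0.67, and 13 of 20 DNA replication genes fell and 0 rose, with a median of -0.64. The counts were 13 and 11 without the 4 arrays of raised background, 9 and 8 in AA arrays alone, and 6 and 3 with background as a covariate. Mean signals of the 2 lists were 7.47 to 8.05 and 6.65 to 6.93 at E17.5 and 6.67 to 7.33 and 5.91 to 6.47 at P1, so that neither list's stages overlapped. Among those that fell were the proliferation marker gene Mki67, the mitotic kinase genes Aurka, Plk1 and Bub1 and the cyclin gene Ccna2. The 6 cell cycle genes that fell with the covariate included Top2a, Nusap1 and Cenpe. Top2a, the topoisomerase that untangles chromosomes, had 8.50 to 9.14 (median 8.53) before and 6.76 to 7.77 (median 7.37) after birth and fell by 1.13 on the log2 scale (SE 0.15, adjusted p = 2.3e-05). Nusap1, a spindle protein gene, differed by -1.15 ± 0.15 and the kinetochore motor gene Cenpe by -1.03 ± 0.19. Shcbp1, of the 15 largest falls, went from 5.71 to 7.19 (median 6.32) down to 4.01 to 5.03 (median 4.62).

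In the DNA replication list the helicase genes Mcm2, Mcm3, Mcm4, Mcm5 and Mcm6 fell, as did the nucleotide supply genes Rrm1 and Rrm2. With background as a covariate 3 genes of this list fell, Mcm4 and Mcm6 among them. Mcm4, a helicase subunit, ran from 7.35 to 8.14 (median 7.69) at E17.5 and from 5.80 to 6.75 (median 6.09) at P1, and the difference was -1.41 ± 0.15 (adjusted p = 6.3e-06). Mcm6, another subunit, went from 7.88 to 8.67 (median 8.12) to 6.45 to 7.39 (median 6.87), by -1.12 ± 0.13. The clamp gene Pcna (-0.92 ± 0.13), the loader gene Cdc6 (-1.03 ± 0.16) and Gins1 (-1.06 ± 0.18) were lower as well. The stages did not overlap for any of these 5, and Pcna, Cdc6 and Gins1 did not pass with background as a covariate. E2F factors switch on such genes at the start of DNA synthesis, and the promoter of Mcm6 is shown for its E2F letters. Capitals mark TTTNGCGC on either strand in the 250 bases before its start (RefSeq, GRCm38.p6), and matches may overlap.

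Mcm6 (chr1:128359706-128359955, minus strand): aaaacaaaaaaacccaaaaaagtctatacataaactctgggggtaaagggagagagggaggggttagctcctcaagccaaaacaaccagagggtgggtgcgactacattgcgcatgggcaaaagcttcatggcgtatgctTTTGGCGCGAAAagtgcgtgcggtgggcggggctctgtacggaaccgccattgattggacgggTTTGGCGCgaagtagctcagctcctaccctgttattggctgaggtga

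It held 3 matches, 2 of them overlapping. A match occurred in 372 of 32851 promoters (1.13%), at least 2 in 8 (0.0244%), and in 3 of the 17 replication genes with a promoter in the table, Mcm5, Mcm6 and Pola1. Chromatin genes of dividing cells stood among the 15 largest falls. Cbx5, which encodes the heterochromatin protein HP1 alpha, dropped from 8.39 to 9.35 (median 9.07) to 6.40 to 7.32 (median 6.93), by -1.94 ± 0.16 (adjusted p = 7.2e-07). Nasp, a histone chaperone gene, dropped from 7.44 to 8.20 (median 7.66) to 5.42 to 6.20 (median 5.55), by -1.85 ± 0.16. The histone methyltransferase gene Kmt5a (-1.59 ± 0.16) and the DNA break repair gene Rad50 (-1.59 ± 0.22) fell too. All of these but Rad50 separated the stages, and the 4 kept their calls under every alternative run.

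Imprinted genes of fetal growth fell in 7 of 15 tested and rose in 1, with a median of -0.28, and 3 fell with background as a covariate. Igf2r, the receptor that clears the growth factor IGF2, had 8.95 to 9.60 (median 9.25) before and 7.24 to 8.07 (median 7.90) after birth and fell by 1.27 on the log2 scale (SE 0.12, adjusted p = 2.2e-06). Grb10, an inhibitor of insulin and IGF receptors, differed by -0.95 ± 0.11 and the amino acid transporter gene Slc38a4 by -1.0 ± 0.12. Neither these nor Igf2r overlapped between the stages. Peg3 (-1.14 ± 0.22) and the cell cycle inhibitor gene Cdkn1c (-0.94 ± 0.15) fell with overlap. Of 13 genes of the IGF system 6 rose and 3 fell, but 2 rose and 4 fell if the shift was left in, and 1 rose and 4 fell in DA arrays alone. The falls were Igf1 (-0.76 ± 0.13), its receptor gene Igf1r (-0.84 ± 0.16) and the binding protein gene Igfbp5 (-1.07 ± 0.16). The rises were the binding protein genes Igfbp2, Igfbp3, Igfbp4, Igfbp6 and Igfbp7 (0.72 ± 0.13) and the insulin receptor substrate gene Irs2. Igf2bp3, a fetal RNA-binding protein gene, fell by 0.73 on the log2 scale (SE 0.16).

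Eln itself did not pass. Its signal was 9.69 to 11.88 (median 11.10) at E17.5 and 9.20 to 11.99 (median 11.88) at P1, and the difference was 0.57 ± 0.35 (adjusted p = 0.18). At each stage 1 array stood far below the rest: 7 of the P1 arrays lay between 11.65 and 11.99, and Eln DA P1 replicate 1 at 9.20, while Efemp2 AA E17.5 replicate 1 lay at 9.69 and the other 7 of its stage above 10.9. Without Eln DA P1 replicate 1 the difference was 0.90 (adjusted p = 0.0061). The lysyl oxidase genes, whose enzymes crosslink elastin and collagen, moved little. Lox (-0.38 ± 0.13, adjusted p = 0.02) and Loxl1 (-0.36 ± 0.12, adjusted p = 0.025) fell, Loxl4 rose (0.38 ± 0.15, adjusted p = 0.041) and Loxl3 did not pass (-0.38 ± 0.16, adjusted p = 0.059), though it did under 7 of 33 alternatives. These calls were narrow. Without Efemp2 AA P1 replicate 1 Lox was -0.34 and Loxl1 -0.32 and neither passed, Loxl1 was also lost without Efemp2 DA E17.5 replicate 1, and Loxl4 was lost without any of 11 arrays (0.31 to 0.39). No single-gene probe set measured Loxl2.

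Among the other elastic fibre genes the fall of the fetal microfibril gene Fbn2 stood out. It ran from 7.73 to 8.65 (median 8.10) at E17.5 and from 5.49 to 7.37 (median 7.04) at P1, with no overlap, and fell by 1.26 on the log2 scale (SE 0.17, adjusted p = 2.3e-05). The fall was -2.0 in Eln DA and -1.19 in Efemp2 DA, against -1.15 and -0.71 in the AA. Emilin2 (-0.59 ± 0.15) and Efemp1 (-0.65 ± 0.22) were lower, and Efemp1 turned to 0.10 with background as a covariate and did not pass without Efemp2 AA E17.5 replicate 1 (-0.55) or Efemp2 AA P1 replicate 1 (-0.55). In all 6 of 19 elastic fibre genes fell (31.6%) and 1 rose (5.26%), against 23.8% and 25.3% of all tested genes. Without the 4 arrays of raised background 2 fell, with background as a covariate 1, in AA arrays alone 1 and in Efemp2 arrays alone 3, and without Efemp2 AA P1 replicate 1 the falls numbered 3. In the KO arrays 2 fell and 6 rose.

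Collagens were split. Of 18 collagen genes 2 rose and 4 fell, and the sign of the list median (0.05) flipped under other scalings. The fibrillar collagen gene Col3a1 went from 9.71 to 10.96 (median 10.76) to 10.56 to 11.36 (median 11.21), by 0.62 ± 0.17. Col3a1 did not pass with no filter on low signal (0.37), after quantile normalization (0.19), with background as a covariate (0.69), in Eln arrays alone (0.34) or in DA arrays alone (0.37). Col1a2 rose by 0.46 ± 0.10 but was -0.14 after quantile normalization, and did not pass without the 4 arrays of raised background. Col12a1, which bridges fibrils, fell by 0.89 on the log2 scale (SE 0.13). The enzymes and chaperones that process collagen fell in 6 of 12 and rose in 1. Plod2, a lysyl hydroxylase gene, had 7.54 to 8.41 (median 7.92) before and 6.10 to 7.07 (median 6.82) after birth, with no overlap, and differed by -1.15 ± 0.14. The prolyl hydroxylase subunit gene P4ha1 (-1.05 ± 0.14) and the collagen chaperone gene Serpinh1 (-0.69 ± 0.18) fell as well, and 2 of the list fell with background as a covariate. The protease gene Adamts9 fell by 1.12 on the log2 scale (SE 0.16) and the protease inhibitor gene Timp1 rose by 1.28 ± 0.21. The basement membrane gene Lamb1 fell by 0.83 on the log2 scale (SE 0.12) within a list of which 2 of 13 rose and 4 fell. Of 16 proteoglycan genes 3 rose and 3 fell. The signs of both list medians depended on scaling.

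Of 11 tested genes of the unfolded protein and amino acid stress list 3 fell and 2 rose, shares near those of all genes. The falls were in chaperones of the endoplasmic reticulum, where secreted proteins fold. Hspa5, which encodes BiP, went from 7.85 to 8.52 (median 8.26) to 7.08 to 7.51 (median 7.22) and Calr from 9.93 to 10.56 (median 10.07) to 8.65 to 9.50 (median 9.23). Both separated the stages, with differences of -0.81 ± 0.11 and -0.95 ± 0.15, and so did Hsp90b1 (-0.67 ± 0.11). Calr did not pass with background as a covariate (-0.57).

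Smooth muscle contractile genes were mixed, with 6 of 17 lower, 3 higher and a median of -0.17. Cald1, a thin-filament regulator, ran from 9.10 to 9.62 (median 9.37) at E17.5 and from 7.82 to 8.58 (median 8.16) at P1, without overlap, and fell by 1.04 on the log2 scale (SE 0.15, adjusted p = 4.4e-05). Tpm2, a tropomyosin gene, differed by -0.79 ± 0.16, the smooth muscle myosin gene Myh11 by -0.71 ± 0.19 and the master regulator Myocd by -0.71 ± 0.13. In Myh11 the change was -1.24 and -1.18 in Eln and -0.11 and -0.33 in Efemp2, and in Efemp2 arrays alone 1 of the 17 genes fell. Ppp1r14a, which inhibits myosin phosphatase, rose by 0.63 ± 0.20 but did not pass if the shift was left in (0.48). The non-muscle myosin genes Myh10 (-0.92 ± 0.14) and Myh9 (-0.65 ± 0.17), typical of fetal smooth muscle, fell, within a list of which 4 of 8 fell and 0 rose, and 1 fell without the 4 arrays of raised background. Tnnc1, a troponin gene of heart and slow muscle, went from 9.32 to 10.70 (median 9.64) to 7.14 to 9.54 (median 7.98), by -1.59 ± 0.26.

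Genes of sterol and fatty acid synthesis fell in 7 of 14 and rose in 1, with a median of -0.55. Sqle, squalene epoxidase, had 6.71 to 7.75 (median 7.24) before and 5.50 to 6.53 (median 5.78) after birth, without overlap, and fell by 1.23 on the log2 scale (SE 0.14, adjusted p = 7.7e-06). Hmgcs1, an early enzyme of the pathway, differed by -1.45 ± 0.22, the fatty acid synthase gene Fasn by -0.98 ± 0.18 and the sterol sensor gene Insig1 by -0.81 ± 0.15. Me1, which supplies NADPH for lipid synthesis and counts here among thyroid hormone targets, differed by -1.08 ± 0.14 with no overlap. With background as a covariate 1 gene of the list fell, and 11 fell if the shift was left in. Scd1, given above with the fat genes, was the member that rose.

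Of 13 hypoxia and glycolysis genes 5 fell and 2 rose. Egln3, an oxygen-sensing hydroxylase that low oxygen induces (-1.48 ± 0.29), the vessel growth factor gene Vegfa (-0.65 ± 0.15) and the glucose transporter gene Slc2a1 (-0.60 ± 0.15) fell, whereas the mitophagy gene Bnip3 rose by 0.79 ± 0.14 with no overlap. These 3 falls were lost with background as a covariate. Among 20 genes of vessel tone 2 rose and 3 fell. The prostacyclin synthase gene Ptgis went from 8.19 to 9.64 (median 8.74) to 8.52 to 10.45 (median 9.81), by 1.04 ± 0.17, and angiotensinogen (Agt) rose by 1.04 ± 0.16. Endothelin (Edn1, -0.81 ± 0.19) fell, and so did Prkg1, the kinase through which nitric oxide relaxes muscle (-1.11 ± 0.18), with no overlap for the latter. Agt and Edn1 did not pass with background as a covariate.

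Signalling lists moved little as groups. Falls made up 28.6% of TGF-beta, 30.8% of Notch, 26.7% of Wnt and 33.3% of ion channel genes, against 23.8% of all tested genes. Rises made up 0%, 15.4%, 26.7% and 0%, against 25.3%. In TGF-beta signalling 4 of 14 genes fell and 0 rose, with Tgfb2 at -0.71 ± 0.14. In Notch signalling 4 of 13 fell and 2 rose, and in Wnt signalling 4 of 15 fell and 4 rose. Of 12 smooth muscle ion channel genes 4 fell, and of 10 retinoic acid genes 2 fell and 1 rose. Of 5 fetal RNA regulators 2 rose and 1 fell, and of 5 thyroid hormone targets 3 rose and 1 fell.

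Markers of other tissues were measured on the same arrays. Of 16 endothelial markers 3 rose and 6 fell, with Egfl7 at 0.98 ± 0.18 and Cdh5 at -0.76 ± 0.16. The endothelial counts were 4 and 0 with background as a covariate and in AA arrays alone, and 0 and 7 in DA arrays alone. Cdh5 did not pass with the covariate (-0.13) or in AA arrays alone (-0.38). Of 12 fibroblast markers 2 rose and 4 fell, with a median of 0.19. With the covariate 4 rose and 0 fell, and without the 4 arrays of raised background 3 rose and 0 fell. Leaving out 1 array gave 1 to 5 fibroblast falls, with 1 without Eln AA E17.5 replicate 2 or Efemp2 AA P1 replicate 1 and 2 without Eln AA E17.5 replicate 1, either Eln DA E17.5 array or Eln DA P1 replicate 2. Epithelial markers rose in 3 of 8 and fell in 1. Krt14 and Trp63, of the basal layer of skin and other stratified epithelia, separated the stages: Krt14 had 4.77 to 5.58 (median 5.10) before and 6.61 to 7.04 (median 6.78) after birth and rose by 1.79 ± 0.14 (adjusted p = 2.8e-07), and Trp63 by 1.23 ± 0.15. Skeletal muscle markers rose in 5 of 11, the muscle regulator Myod1 by 0.98 ± 0.16, and 2 passed without the 4 arrays of raised background. With background as a covariate 0 rose and 1 fell, in DA arrays alone 2 rose and 3 fell, and 3 rose without Efemp2 AA P1 replicate 2. Myod1 did not pass with the covariate (0.32) or in AA arrays alone (0.71). Heart muscle markers rose in 1 of 13 and fell in 1, cartilage markers fell in 1 of 6 and mesothelial markers rose in 1 of 7. Among 5 erythroid markers 1 rose and 1 fell, the fall being embryonic Hba-x (-1.35 ± 0.24). Slc25a37, the mitochondrial iron importer gene used for haem in red cell precursors, was among the 15 largest falls, from 8.56 to 9.64 (median 9.25) to 6.58 to 8.11 (median 7.43), by -1.55 ± 0.16. The part of any of these cell types in the stage change was not tested.

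The stage change was then set against location, by the difference of DA less AA. Both locations of a model and stage lie in 1 normalization set, so differences between sets largely cancel here. With limma 0 of 13893 genes passed (0%), and 1407 had an unadjusted p under 0.05 (10.1%). The location difference had a median of -0.12 over all genes, and 3 of 4 DA P1 arrays but 1 of 4 AA P1 arrays had raised background. Leaving out 1 array changed the count to 226 without Efemp2 AA P1 replicate 2, 11 without Efemp2 DA P1 replicate 1, 4 without Eln DA E17.5 replicate 2 and 1 without Efemp2 DA E17.5 replicate 2. It was 17 without the 4 arrays of raised background and 694 when all 48 arrays entered the fit and shared 1 estimate of spread (207 higher and 487 lower in DA).

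Genes of nerve cells led the differences that were lower in DA. Ina, a neurofilament-like protein gene, had 5.59 to 8.22 in the 4 DA pools at E17.5 and 4.16 to 4.59 in the 4 at P1, against 3.73 to 4.13 and 4.18 to 4.85 in the AA. The DA pools before birth were thus above all others, and the location difference was -2.92 ± 0.50 (unadjusted p = 1.9e-05, adjusted p = 0.13). It passed without Efemp2 AA P1 replicate 2 (adjusted p = 0.013), without Eln DA E17.5 replicate 2 (0.027), without Efemp2 DA E17.5 replicate 2 (0.042) and with all 48 arrays (0.02). The neurofilament gene Nefl was 4.94 to 7.85 in DA at E17.5 and 3.34 to 4.05 in DA at P1, and the secretory granule gene Chgb 5.48 to 8.37 and 4.05 to 4.38. Their location differences were -2.46 ± 0.50 and -2.51 ± 0.51 (adjusted p = 0.27 for both), and both passed without Efemp2 AA P1 replicate 2 or without Eln DA E17.5 replicate 2.

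The neuron and Schwann cell list followed the same course. Its mean signal was 5.81 to 8.09 in DA at E17.5, 5.19 to 5.50 in DA at P1, 5.21 to 5.31 in AA at E17.5 and 5.11 to 5.53 in AA at P1. The median stage change of its 8 tested genes was 0.25 in AA and -1.44 in DA, against 0.09 and -0.09 over all genes. In the stage comparison 4 of the 8 fell and 1 rose. Tubb3, the neuronal tubulin gene, ran from 5.48 to 9.95 in DA and from 3.79 to 4.90 in AA at E17.5, and its stage change was -1.42 ± 0.39 over both locations but 0.23 in AA arrays alone. Dbh, which makes noradrenaline in sympathetic nerves, was 5.30 to 8.89 in DA and 3.54 to 4.60 in AA at E17.5. Its stage change (-0.93 ± 0.34, adjusted p = 0.032) was 0.27 in AA arrays alone and was lost without any of 5 single arrays. Stmn2 differed by -0.99 ± 0.28. Gap43, of growing axons and Schwann cells, fell at both locations, with -0.71 and -1.08 in AA and -1.95 and -2.97 in DA, and was among the 15 largest falls, as were the neuronal gene Stmn4 (-1.73 ± 0.23) and the glial gene Fabp7 (-1.60 ± 0.24). One pool, Efemp2 DA E17.5 replicate 2, had the highest signal of all 16 for Ina, Nefl, Chgb, Tubb3, Dbh, Stmn2 and Gap43.

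**Figure D4:**
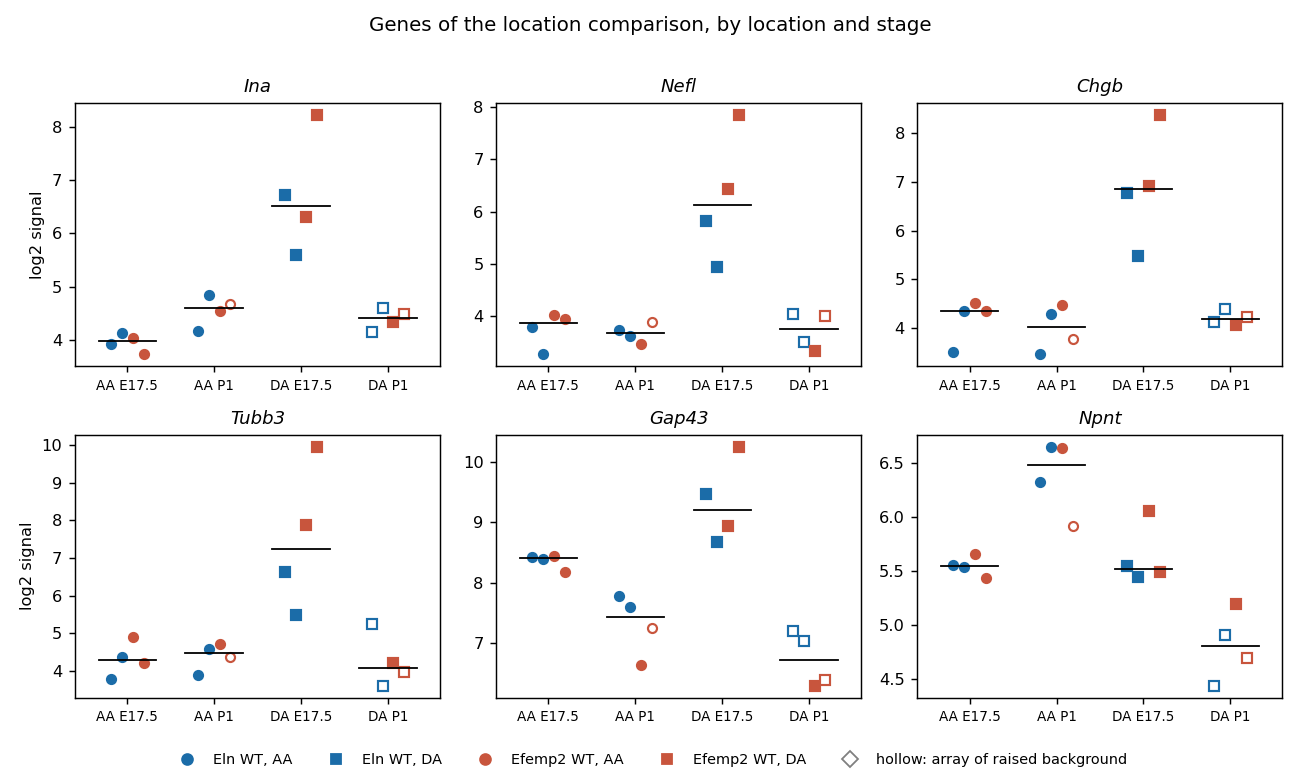
Deposited log2 signal of 6 genes in the AA and the DA at E17.5 and P1, with colour for model and hollow symbols for arrays of raised background; each column holds 4 arrays and the bar is their median. Ina, Nefl, Chgb and Tubb3 are raised in the DA at E17.5 alone, where Ina has 5.59 to 8.22, and Npnt parts at P1, with 5.92 to 6.65 in AA and 4.44 to 5.20 in DA.

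Npnt, which encodes the matrix protein nephronectin, parted after birth. Its signal was 5.44 to 6.05 in all 8 E17.5 pools, and at P1 5.92 to 6.65 in AA and 4.44 to 5.20 in DA. The location difference was -1.66 ± 0.30 (unadjusted p = 4e-05, adjusted p = 0.17), and it passed without Efemp2 AA P1 replicate 2 (adjusted p = 0.0046), without Efemp2 DA P1 replicate 1 (0.044) and with all 48 arrays (0.0023). Spink2, a protease inhibitor gene, was 4.01 to 5.05 in AA and 5.51 to 6.60 in DA at E17.5, and at P1 4.96 to 5.52 and 5.50 to 5.75. On the other side, Ube2v2, a ubiquitin-conjugating enzyme variant gene, had 7.43 to 8.73 in DA at P1 and 4.76 to 6.42 in the other 12 pools (1.97 ± 0.45, adjusted p = 0.3). The zinc finger gene Zfp667 had 3.37 to 3.82 in AA at P1 and 4.48 to 5.12 elsewhere (1.09 ± 0.24, adjusted p = 0.3), and the natriuretic peptide gene Nppa differed by 1.23 ± 0.31 and Olfm5 by 1.31 ± 0.30. These 5 genes passed without Efemp2 AA P1 replicate 2, which had raised background.

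Skeletal muscle, mesothelium, endothelial and HOX lists also parted by location as medians, with 1.05 in AA and -0.62 in DA for 11 muscle genes, 0.68 and -0.44 for 7 mesothelial genes, 0.14 and -0.54 for 16 endothelial genes and 0.46 and -0.39 for 14 HOX genes. Over all tested genes these medians were 0.09 and -0.09. An unadjusted p under 0.05 for the location difference (limma) was found in 6 muscle, 6 mesothelial, 8 endothelial and 7 HOX genes. Of all tested genes 10.1% had such a p, and none passed the adjusted threshold. The mean signal of the muscle list reached 8.25 in 1 AA pool at P1, Efemp2 replicate 2, where skeletal actin (Acta1) was 11.11 against 6.74 to 9.48 on the other 15 arrays. The HOX list was 4.92 to 5.07 in AA and 5.83 to 5.97 in DA at E17.5, and 5.16 to 5.51 and 5.05 to 5.95 at P1. HOX genes mark position along the trunk, and the mean signals of the list separated the locations before birth and overlapped after it. At P1 the top of the DA range, 5.95, still lay within its range before birth, and its low end lay under the AA range. Most DA P1 arrays had raised background, and the part of background in this overlap was not tested.

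The stage change was compared between the models, whose E17.5 arrays lie in different sets. Across genes the changes in Eln and in Efemp2 correlated with r = 0.689 (genes are not independent replicates), and 359 of 13893 genes differed (2.58%), 237 of them with the higher change in Efemp2. This count ranged from 12 to 962 on leaving out single arrays and was 4 with background as a covariate. The mast cell protease gene Mcpt4 had 1.68 to 3.52 in the Eln pools at E17.5 and 6.10 to 6.83 at P1, but 4.49 to 7.39 and 5.42 to 8.37 in Efemp2. Its change was 3.95 in Eln and 0.88 in Efemp2, a difference of -3.07 ± 0.43 (adjusted p = 0.0066). For Egln3 the changes were -0.47 and -2.48 (difference -2.0 ± 0.34), and for Rsad2 1.60 and 0.48 (difference -1.12 ± 0.25). The histone gene H1f3 and the keratin gene Krt6a had changes of 1.78 and 1.31 in Eln and of -0.77 and -1.20 in Efemp2, and Phxr4 had -1.33 in Eln and 0.91 in Efemp2. Ctrcos and Spopfm2 differed by 2.17 ± 0.41 and 2.12 ± 0.48. Phxr4, Ctrcos and Spopfm2 lost their call when any of several single arrays was left out, including each of the 4 Eln E17.5 arrays (adjusted p = 0.057 to 0.11 there).

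The same comparison in the 16 KO arrays gave 3086 genes higher at P1 (22.2%) and 3097 lower (22.3%). In both comparisons 4611 genes passed, 4600 of them in the same direction, and the changes correlated with r = 0.856 across genes. KO and WT arrays of a stage share normalization sets, so that this resemblance cannot be told apart from that of the sets. Adipoq rose by 2.23 in KO, Mt1 by 2.03 and Ifit1 by 1.37, and Mcm4 (-1.29) and Nasp (-1.81) fell. Ucp1 rose by 1.63 and Car3 by 1.95. In KO 8 of 10 fat cell genes, 14 of 16 glucocorticoid genes and 9 of 9 interferon genes rose, and 16 of 21 cell cycle genes and 16 of 20 DNA replication genes fell. Other lists went otherwise than in WT. Of 18 collagen genes 8 rose and 2 fell, of 12 collagen processing genes 5 and 4, and of 13 basement membrane genes 7 and 2. Macrophage markers rose in 3 of 14 and platelet markers in 1 of 6. Whether WT and KO differed in any of these was not tested here.

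The Lox WT arrays, with 2 arrays a group, were not tested. Over all tested genes their change did not follow that of the Eln and Efemp2 arrays (r = 0.00405), and 45.8% of the genes called here had the same sign there. Genes named above with changes of the same sign in Lox WT, less its median, were Adipoq (3.47), Car3 (3.20), Ucp1 (2.44), Mt1 (2.15), Hmox1 (2.97), Mcm4 (-0.58), Nasp (-0.89) and Sqle (-1.35). Others did not, as in Fbn2 (0.28), Cald1 (0.12) and H2-K1 (-0.03). List medians in Lox WT were 1.27 for fat cell, 1.26 for glucocorticoid, 0.85 for interferon, -0.71 for DNA replication, -0.31 for cell cycle and -0.03 for antigen presentation genes. They were 0.29 for elastic fibre, 0.16 for collagen processing and 0.12 for contractile genes, against -0.24, -0.38 and -0.17 in Eln and Efemp2 WT.

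**Figure D5:**
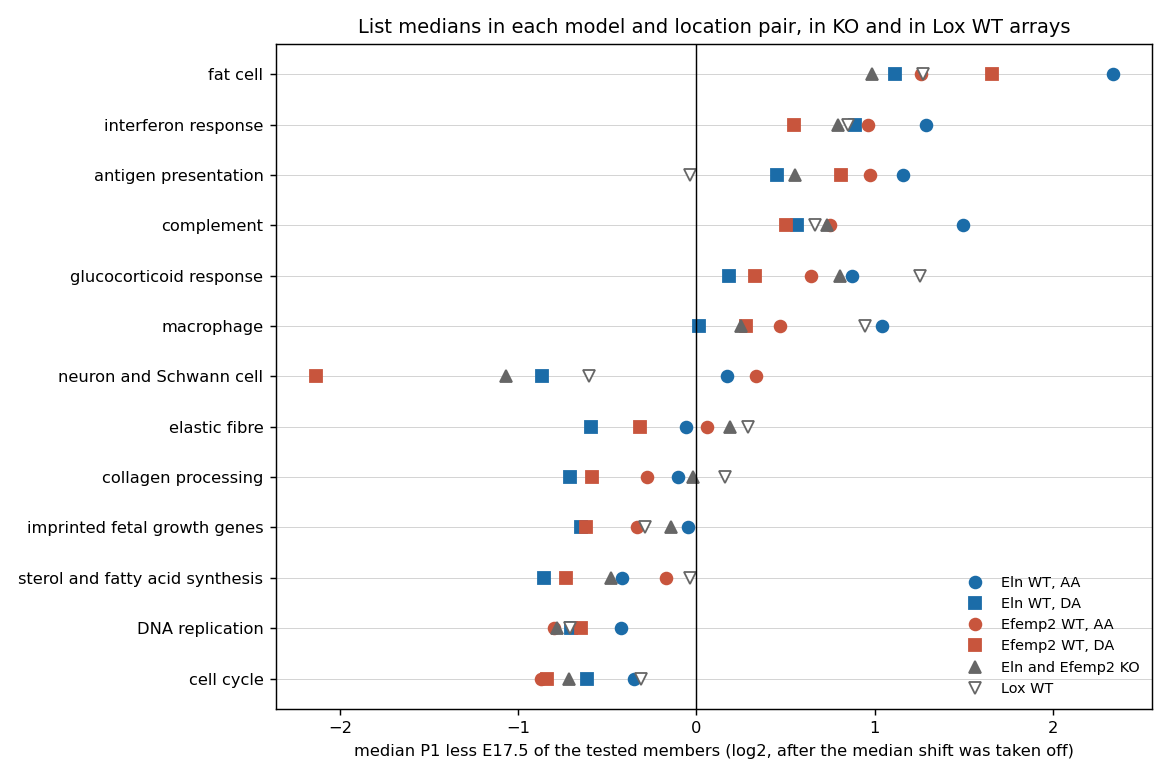
Median P1 less E17.5 difference (log2, less the median shift) of the tested members of 13 lists in each of the 4 WT pairs of model and location, in the 16 KO arrays and in the Lox WT arrays. Fat cell, interferon, complement and glucocorticoid medians lie above 0 in all 6, cell cycle and DNA replication medians below 0 in all 6, and the neuron and Schwann cell median lies above 0 in both AA pairs and below 0 in both DA pairs.

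Among the 15 largest falls were also genes outside the lists. Cdh12, a cadherin gene, went from 4.67 to 6.42 (median 5.60) to 2.79 to 4.56 (median 3.43), by -1.99 ± 0.21, and Slc26a7, an anion transporter gene, from 5.23 to 7.10 (median 6.16) to 3.74 to 4.73 (median 3.98), by -1.85 ± 0.18. Both separated the stages, as did Rtl3 (-1.68 ± 0.16) and the probe set of the T cell receptor segment Trav9d-3 (-1.59 ± 0.14), whose signals were 10.25 to 11.07 at E17.5. Sprr1a, a gene of injured and regenerating cells, fell by 2.42 on the log2 scale (SE 0.43). Its E17.5 signals were 7.23 to 9.03 in Efemp2 and 4.12 to 6.88 in Eln, and at P1 all 8 lay between 3.90 and 5.16. Sprr1a did not pass with background as a covariate (-1.23) or in Eln arrays alone (-1.26).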

How the data were processed

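RNA of pooled aortic segments was extracted with a column kit, amplified from a few nanograms, labelled with biotin and hybridised to 1-colour arrays, per the labels' protocols. RMA signals on the log2 scale, 1 for each probe set, were deposited by the authors, who used Affymetrix Expression Console per the submitters' processing notes. Which array design and build they used is not given in the sources used here. The deposited log2 values were used as they are, and arrays give no read depth. Of 41345 probe sets 23521 carried 1 gene symbol, 1814 several and 16010 none. Each of 22180 genes was represented by its brightest single-gene probe set, and the 13893 whose highest group mean reached 4.99 were tested. The models and locations of the 16 arrays were blocking factors in limma 3.58.1 (R 4.3.3), after each model's median shift was taken off. Location and model differences were interaction terms, and p-values were Benjamini-Hochberg adjusted over all tested genes.

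The text names the 15 largest changes in each direction with 1 sign in all 4 pairs, up to 6 members of a gene list, the smallest p-values of the location test where fewer than 3 genes passed, the 3 largest model differences each way, Eln and the lysyl oxidase genes. Of the genes so chosen a part is printed. Predicted, receptor and small RNA genes were skipped. The members and lists were chosen with earlier results of these data known. The fits were tested on simulated data. Alternatives were filters, scalings, covariates, subsets, the replicate number as a block and leaving out each array. The titles do not say whether AA and DA pools of the same number came from the same animals, and the fits took the arrays as independent. The deviations of same-numbered arrays correlated with r of -0.23 to 0.39 over 28 pairs of groups. Most of these pairs join different models or stages, so the range cannot exclude such pairing.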

Additional observations from a re-analysis of the deposited data

Results flagged for a closer look

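Single arrays stood apart from the other 7 of their stage in 16 of 330 gene and stage groups examined with Dixon's test, where chance alone gives about 1 in 20. The signals below have the median shift of the model taken off the P1 arrays. Efemp2 AA E17.5 replicate 1 was low for Eln (9.69), Col3a1 (9.71) and Cox4i1 (8.91) and high for Lpl (8.30), Cox7a1 (8.21) and Ppargc1a (6.85). Eln DA P1 replicate 1 was low for Eln (9.21), Col3a1 (10.56) and Tpm2 (7.44) and high for Ppargc1a (6.06). The other flags fell on different arrays. They were Pramel34 at 1.24 in Efemp2 AA E17.5 replicate 2, Npnt at 6.05 in Efemp2 DA E17.5 replicate 1, Tnnc1 at 9.55 in Eln DA P1 replicate 2, Agt at 5.22 in Eln AA P1 replicate 1, Plin1 at 8.74 in Eln AA P1 replicate 2 and Edn1 at 7.63 in Efemp2 DA P1 replicate 1.

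The stage change of 8 named genes differed between the models by an interaction test in limma. The change in Efemp2 was higher than that in Eln by 2.25 for Phxr4 (adjusted p = 0.018), 2.17 for Ctrcos (adjusted p = 0.021) and 2.12 for Spopfm2 (adjusted p = 0.035). The difference of Efemp2 less Eln was -3.07 for Mcpt4 (adjusted p = 0.0066), -2.55 for H1f3 and -2.51 for Krt6a (adjusted p = 0.0047 for both), -2.0 for Egln3 (adjusted p = 0.018) and -1.12 for Rsad2 (adjusted p = 0.035).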

How the results depend on the processing

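The count of 6831 genes in the stage comparison stayed within 1.5 times under the other scalings and filters, but was 11083 with no filter on low signal, 2947 with array background as a covariate, 4499 without the 4 arrays of raised background, 4058 in Efemp2 arrays alone and 2900 in AA arrays alone; leaving out 1 array gave 6084 to 7054. In the knockout arrays 6183 genes became 3522 with that covariate and 5395 to 6356 on leaving out 1 array. The location difference, with 0 genes, gave 694 with all 48 arrays, 17 without the 4 arrays, and 0 to 226 on leaving out 1 array, and its genes with an unadjusted p under 0.05 numbered 947 to 3268. The model difference, with 359 genes, gave 237 under a stricter filter, 749 with the shift left in, 79 after quantile normalization, 2032 with all 48 arrays and 4 with the covariate. On leaving out 1 array it gave 12 to 962, with 12, 16, 13 and 14 without each of the Eln E17.5 arrays, 39 without Efemp2 DA E17.5 replicate 2 and 962 without Efemp2 AA P1 replicate 1. It was not run without the 4 arrays, where its 8 group means have no Eln DA P1 array. The replicate number as a block gave 6800, 0 and 381 genes for the stage, location and model comparisons, and whether the numbers pair these arrays is not known. The cause of these changes was not tested.

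Of 146 named genes called in the stage comparison, 71 kept their call under all alternatives run and 75 lost it under at least 1. The sign reversed for 5 of them: Pramel34 (-0.071) and Efemp1 (0.10) with the covariate, Col1a2 (-0.14) after quantile normalization, and Tubb3 (0.23) and Dbh (0.27) in AA arrays alone. For 13 gene lists, 398 of 429 counts over 33 alternatives were within 1.5 times the reported count. With 2 pools a group, the number of arrays limits the precision, and dim genes lie close to a background that differed between arrays.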
